A study of Mus musculus with 12 samples.

Results

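Complement is a cascade of plasma and locally made proteins that tags particles for uptake and recruits leukocytes. C1q, built from 3 chains, starts the classical pathway, C3 is the component on which all pathways meet, and factor B and properdin form and stabilise the C3 convertase of the alternative pathway. The small fragments C3a and C5a act on leukocytes through their own receptors. Alveolar macrophages, which patrol the inner surface of the lung, are phagocytes that bear complement receptors.

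The transcripts described here are those of 8 genes, taken by symbol from a table of 23413 genes. They are C1qa, C1qb and C1qc (the chains of C1q), C3, Cfb (factor B), Cfp (properdin), C3ar1 (the C3a receptor) and C5ar1 (the main C5a receptor). All 8 were in the table, and all 8 passed the filter on low counts that left 12748 genes for testing. RNA-seq libraries of mouse alveolar macrophages from lavage fell into 6 groups of 2, 12 libraries in all. WT cells were cultured for 24 h with 50 nM vitamin D3 or without it. Fresh cells came from VDR knockout (KO) and WT mice at 10 weeks, and from KO and WT mice at 4 weeks. The labels state neither the strain, nor the age of the mice whose cells were cultured, nor whether cells of several mice were pooled, nor which part of Vdr the knockout lacks. The libraries of a group are not said to come from separate mice, so a p-value here reflects library-to-library spread, some of which may be technical.

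Total counts ran from 10409572 to 23233674 per library, so that 1 count was worth between 0.0483 and 0.0903 CPM (counts scaled to a library of 1000000, with TMM factors between libraries). All 12 markers of alveolar macrophages found in the table were detected in every library, with summed levels between 11957 and 42417 CPM. Vdr itself was present in each library labelled KO, at 31.2 to 84.2 CPM, against 56.5 to 127 CPM in fresh WT cells, and counts from outside the deleted part would check nothing. The highest of those KO values belonged to 10-week replicate 1, whose description code names WT against its genotype label, and 10-week WT replicate 2 carries a KO code. Results at 10 weeks are given as the genotype labels state them. At 10 weeks replicate 2 of both genotypes was female by Xist (787 and 800.0 CPM in KO and WT), whereas Xist stayed under 1 CPM in the other 10 libraries.

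C3 and Cfp were higher, and Cfb lower, in cells cultured with vitamin D3 than in untreated cultures. C3 reached 1966 and 726 CPM with vitamin D3, against 477 and 274 CPM without it. Both treated libraries lay above both untreated ones, though the treated pair differed more from each other than the untreated pair did. Of the 12748 genes tested, 6229 likewise did not overlap between these groups, in either direction. The log2 fold change of C3 was 1.84 ± 0.43 (SE; edgeR quasi-likelihood test, adjusted p = 0.0173), a 3.58-fold difference. This call rested on single libraries. It was lost without vitamin D3 replicate 1 (log2 0.95, edgeR adjusted p = 0.221) and without untreated replicate 2 (1.499, edgeR adjusted p = 0.101). It was also lost when only the cultured libraries entered the fit (edgeR adjusted p = 0.067).

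Cfp, whose product properdin holds the alternative pathway convertase together, was at 126 and 69.9 CPM with vitamin D3 and at 22.9 and 15.1 CPM without it. On the log2 scale it rose by 2.36 ± 0.27 (edgeR adjusted p = 0.000233), or 5.14-fold. Cfb, the protease-bearing subunit of that same convertase, was at 148 and 114 CPM with vitamin D3 and at 399 and 290.2 CPM without it. It fell by 1.40 ± 0.23 on the log2 scale (edgeR adjusted p = 0.00273), with both treated libraries below both untreated ones. Such separation, in either direction, was found for 6229 of the 12748 genes tested. Cfp and Cfb passed in each of the 12 alternative fits for this comparison, with log2 fold changes of 1.87 to 2.73 for Cfp and -1.60 to -1.14 for Cfb.

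The cultured libraries came as 1 pair from each of 2 series of title numbers. The second pair joined untreated replicate 2 with vitamin D3 replicate 3. Treated and untreated libraries did not overlap for any of the 3 genes, so any pairing gives the same directions. Only the sizes of the ratios add to the values above. In the first series the ratio of vitamin D3 to none was 4.12 for C3, 5.52 for Cfp and 0.372 for Cfb. In the second it was 2.65 for C3, 4.64 for Cfp and 0.391 for Cfb. Of the 8 genes, 3 passed in this comparison, against 10.6% of all genes tested. The other 5 did not pass: C1qa, C1qb, C1qc, C3ar1 and C5ar1. C3ar1 was at 1.57 and 3.44 CPM with vitamin D3 and at 3.61 and 9.96 CPM without it (log2 -1.44 ± 0.84, edgeR adjusted p = 0.346).

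**Figure D1:**
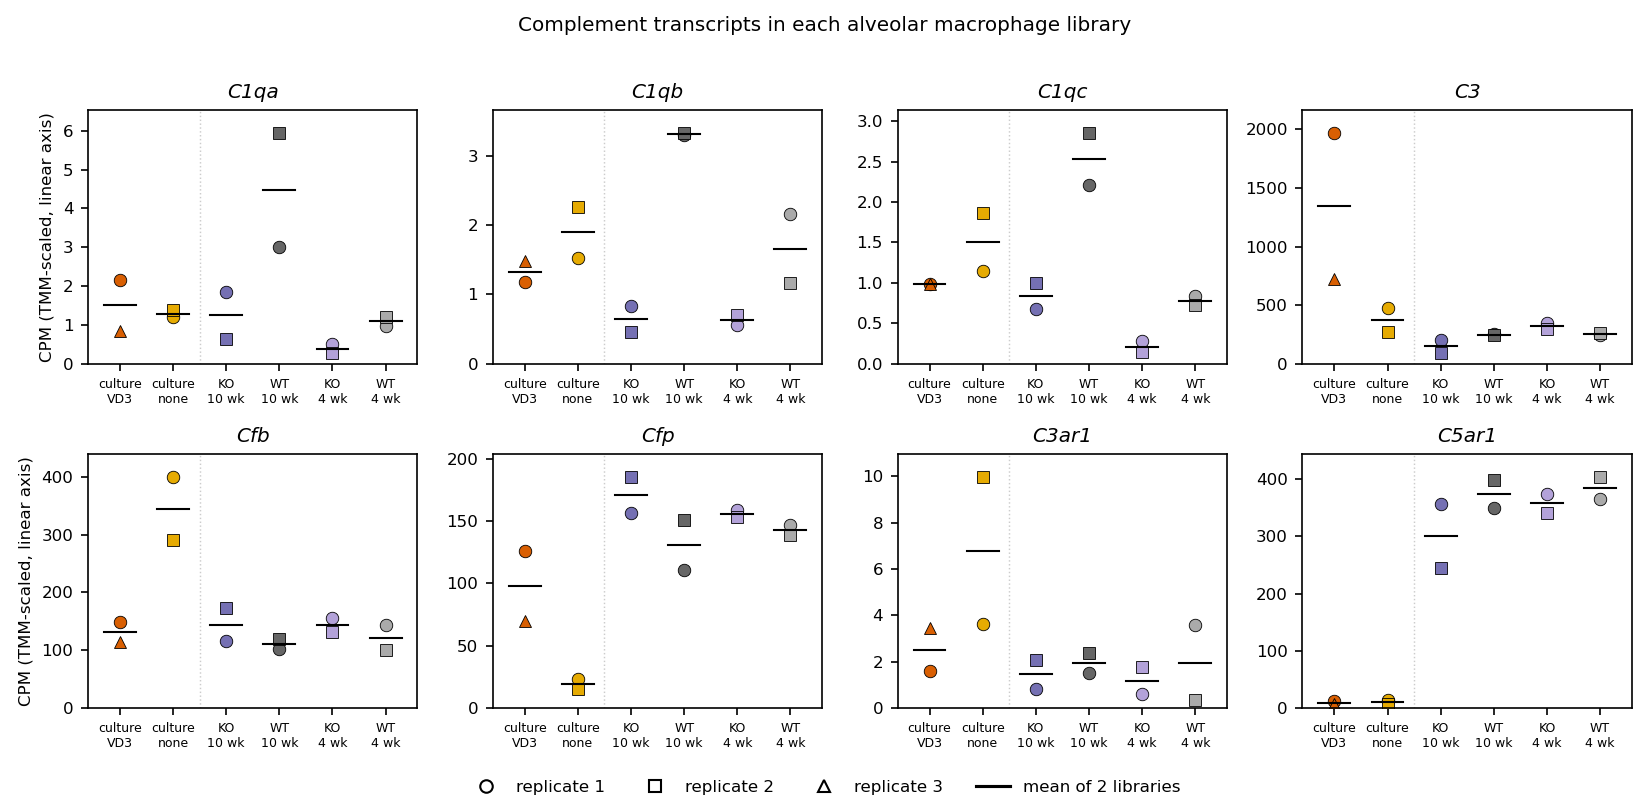
CPM of each of the 8 genes on a linear axis, by group, with 1 symbol per library and a bar at the mean of the 2 libraries. With vitamin D3, C3 (726 and 1966 CPM) and Cfp (69.9 and 126 CPM) lie above untreated culture and Cfb (114 and 148 CPM) below it, while C5ar1 lies at 14.3 CPM or less in all 4 cultured libraries.

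C3 and Cfp were the members that rose with vitamin D3, and their upstream regions are shown for that reason. They are the 250 bases before the RefSeq start of each gene in build GRCm38.p6, minus strand of the chromosome, at chr17:57228137-57228386 for C3 and chrX:20931556-20931805 for Cfp. The authors' counts were made on mm9, and the windows serve as sequence only. Capitals mark every match, on either strand, to the motifs searched.
C3: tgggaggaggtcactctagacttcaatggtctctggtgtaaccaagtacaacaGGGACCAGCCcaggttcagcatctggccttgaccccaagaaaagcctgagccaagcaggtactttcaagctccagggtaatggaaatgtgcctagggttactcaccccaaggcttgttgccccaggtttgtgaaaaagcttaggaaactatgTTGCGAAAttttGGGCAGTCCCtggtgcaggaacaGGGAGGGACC
Cfp: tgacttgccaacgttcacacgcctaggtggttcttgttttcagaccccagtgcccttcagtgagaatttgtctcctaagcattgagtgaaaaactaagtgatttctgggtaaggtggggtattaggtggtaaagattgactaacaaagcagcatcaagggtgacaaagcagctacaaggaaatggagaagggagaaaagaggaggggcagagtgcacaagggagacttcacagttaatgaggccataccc

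The motifs were GAGGAA (the core bound by PU.1), TTGCNNAA (C/EBP), GGGA and CC with 4 bases between them (NF-kB), GAAA and GAAA with 2 bases between them (the interferon-stimulated response element) and the direct repeat bound by VDR with its partner RXR. The C3 window held 1 match to TTGCNNAA, at bases -45 to -38 from the start. It held 3 matches to the NF-kB motif, at -197 to -188, -33 to -24 and -10 to -1, of which none overlapped another motif. Of 32851 such windows of RefSeq starts, 9.56% held the C/EBP motif and 17.6% the NF-kB motif. The Cfp window held no match to any of the 5 motifs. The VDR-RXR repeat was in neither window and in 0.0396% of all windows. PU.1 and interferon motifs stood in 23.3% and 2.98% of windows. RefSeq windows were found for 6 of the 8 genes, with none used for C1qa and Cfb. A match or its absence in these letters says nothing of where a factor binds.

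None of C3, Cfb and Cfp passed between genotypes in fresh cells. At 10 weeks C3 was at 199.8 and 94.3 CPM in KO cells, against 249.9 and 245 CPM in WT cells. At 4 weeks KO cells held 349 and 293 CPM of C3, against 241 and 262 CPM in WT cells. Both KO libraries were thus below WT at 10 weeks (as for 20.9% of all genes) and above WT at 4 weeks (as for 24% of all genes), and neither difference passed (log2 -0.75 ± 0.42 and 0.35 ± 0.42, edgeR adjusted p = 0.631 and 0.804). The 95% interval of the KO difference ran from -1.66 to 0.17 at 10 weeks and from -0.56 to 1.26 at 4 weeks. The 4-week value passed when only those 2 groups were fitted (edgeR adjusted p = 0.0459), and the 10-week value with no filter (edgeR adjusted p = 8.57e-07). Both settings called many more genes. Fitting those 2 groups alone called 635 at 4 weeks, against 85 with all groups in the fit. With no filter 503 were called at 10 weeks, against 14 with the filter.

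Cfp was at 156 and 185 CPM in KO cells and at 111 and 151 CPM in WT cells at 10 weeks. KO cells of 4 weeks had 159 and 153 CPM, against 147 and 139 CPM in WT cells of that age. All 4 KO libraries lay above all 4 WT libraries, as for 2.27% of all genes tested. Over both ages the log2 fold change of Cfp was 0.26 ± 0.18 (edgeR adjusted p = 0.593). Cfb was at 116 and 172 CPM in KO cells and at 101 and 119 CPM in WT cells at 10 weeks. The 4-week values were 155 and 131 CPM in KO cells and 143 and 100.001 CPM in WT cells, so that the genotypes overlapped at both ages (both ages, log2 0.31 ± 0.16, edgeR adjusted p = 0.465, and 0.0258 with no filter). With no filter 791 genes were called over both ages, against 127 with the filter.

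Age left these 3 transcripts without a call. C3 in KO cells had a log2 fold change of -1.12 ± 0.42 at 10 against 4 weeks (edgeR adjusted p = 0.12). That value passed in 3 alternatives: when only those 2 groups were fitted (edgeR adjusted p = 0.0396), with the replicate number as a block (edgeR adjusted p = 0.0144) and with no filter. In WT cells the same value was -0.02 ± 0.42 (edgeR adjusted p = 0.986).

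**Figure D2:**
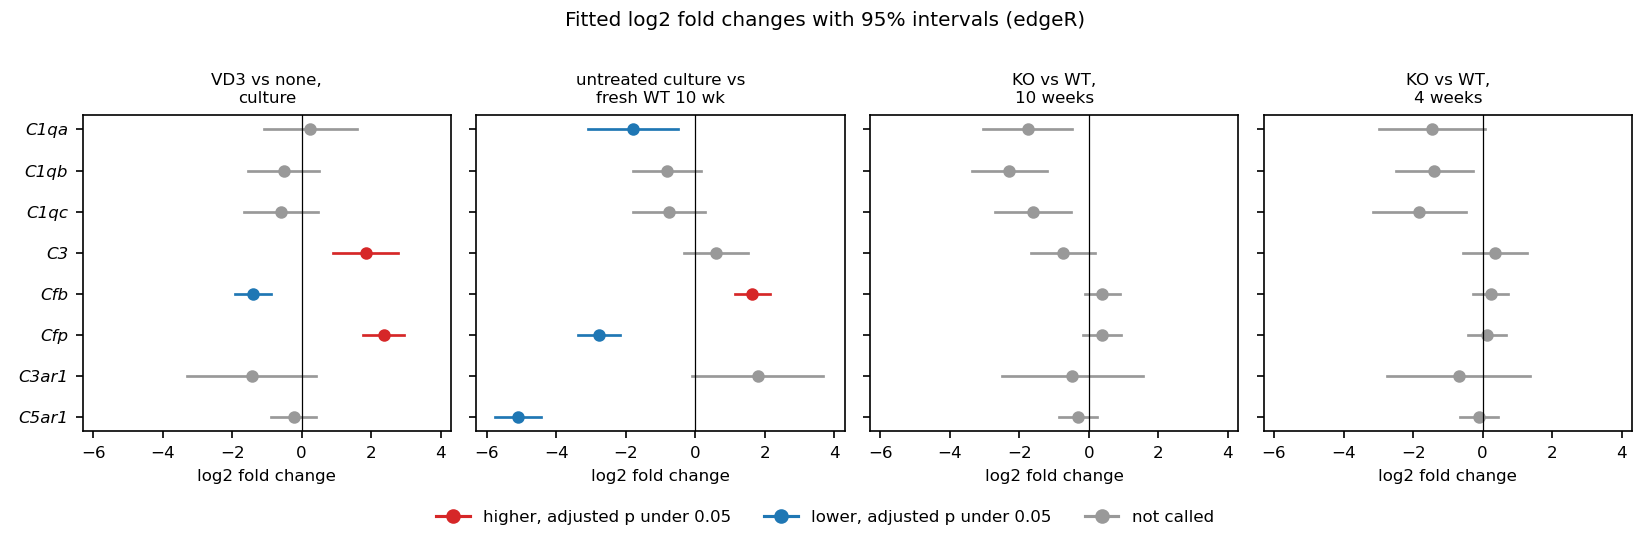
Log2 fold changes of the 8 genes in 4 comparisons, as points with 95% intervals from the edgeR fit, red or blue where the adjusted p was under 0.05. Called values are C3, Cfb and Cfp with vitamin D3, and C1qa, Cfb, Cfp and C5ar1 in untreated culture against fresh 10-week WT cells, while no gene is called between KO and WT at either age.

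The largest log2 fold change of any of the 8 genes was that of C5ar1 in culture. C5ar1, which carries the chemotactic signal of C5a, was at 14.3 and 7.04 CPM in untreated culture. In fresh WT cells it was at 350.2 and 399 CPM at 10 weeks, and at 366 and 403 CPM at 4 weeks. The cultured and fresh libraries were far apart, with log2 fold changes of -5.10 ± 0.31 against 10 weeks (edgeR adjusted p = 3.39e-07) and -5.14 ± 0.31 against 4 weeks (edgeR adjusted p = 3.78e-07). The untreated level was 34.4-fold lower than in 10-week cells.

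Both kinds of culture held little C5ar1, at 11.1 and 7.30 CPM with vitamin D3 and at 14.3 and 7.04 CPM without vitamin D3. The log2 fold change was -0.22 ± 0.30 with a 95% interval of -0.88 to 0.43 (edgeR adjusted p = 0.722). Between genotypes C5ar1 overlapped at both ages. It was at 357 and 245 CPM in KO cells at 10 weeks and at 374 and 341 CPM in KO cells at 4 weeks, where the 95% interval of KO over WT was -0.65 to 0.44.

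C5ar2, the gene of the other C5a receptor and not 1 of the 8, was also lower in untreated culture. It fell by 3.51 ± 0.15 on the log2 scale against fresh 10-week WT cells (edgeR adjusted p = 6.34e-08). C5ar2 was at 4.70 and 3.56 CPM in untreated culture and at 46.2 and 49.4 CPM in those fresh cells.

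Cfp and Cfb moved with culture in the directions opposite to those seen with vitamin D3. Untreated culture had 22.9 and 15.1 CPM of Cfp, against 111 and 151 CPM in fresh 10-week WT cells. The log2 fold change of Cfp was -2.77 ± 0.27 there (edgeR adjusted p = 1.11e-05), and -2.90 ± 0.27 against 4-week cells (edgeR adjusted p = 8.52e-06). Cfb was at 399 and 290.2 CPM in untreated culture and at 101 and 119 CPM in 10-week cells, and thus rose by 1.65 ± 0.24 on the log2 scale (edgeR adjusted p = 0.000186). Against 4-week cells the rise was 1.504 ± 0.23 (edgeR adjusted p = 0.000358). The comparisons of vitamin D3 and of culture share the untreated cultures, so opposite signs are in part built in and are not independent. With vitamin D3, Cfp (69.9 and 126 CPM) and Cfb (114 and 148 CPM) overlapped the fresh WT cells, which at both ages held 111 to 151 CPM of Cfp and 100.001 to 143 CPM of Cfb. C3 with vitamin D3 (726 and 1966 CPM) lay above all 8 fresh libraries, the highest of which held 349 CPM.

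Against 10-week WT cells 4 of the 8 genes passed in untreated culture, where 42.4% of all genes did, and against 4-week cells 3 of 8, where 39.7% did. These shares are near the background. C5ar1, Cfp and Cfb passed in all 14 alternatives against 10-week cells and all 12 against 4-week cells. C3 was at 477 and 274 CPM in untreated culture, with a log2 fold change of 0.60 ± 0.42 against 10 weeks (edgeR adjusted p = 0.269). C3ar1, at 3.61 and 9.96 CPM in untreated culture against 1.53 and 2.37 CPM in 10-week cells, had 1.80 ± 0.86 (edgeR adjusted p = 0.115). C3ar1 passed there when only those 2 groups were fitted (edgeR adjusted p = 0.0343), with the labels of the 2 conflicting 10-week libraries exchanged (0.0401) and with no filter (0.000203).

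Marker genes of macrophage type also differed between culture and fresh cells. The 12 alveolar macrophage markers summed to 12760 and 15187 CPM in untreated culture and to 21462 and 22618 CPM in fresh 10-week WT cells. Chi3l3 weighs most in these sums. Over all libraries it averaged 16265 CPM, and the next marker, Atp6v0d2, 1784 CPM. The 12 markers of monocytes and interstitial macrophages summed to 705 and 647 CPM in untreated culture, against 32.5 and 35.4 CPM in those fresh cells. Mmp12, a macrophage elastase, held 657 and 603 CPM of the cultured sums, and Lyve1 was at 0 in both cultured libraries. With vitamin D3 the same sums were 1079 and 1698 CPM. Of all 12748 genes tested, 2699 were called lower in untreated culture than in fresh 10-week WT cells. Alveolar macrophage markers were called lower for 6 of 12 tested and higher for 3. For monocyte and interstitial macrophage markers it was 2 lower and 3 higher of 8, and for neutrophil markers 3 lower and 2 higher of 6. Many markers of other cells were called lower in untreated culture. Dendritic cell markers summed to 40.7 and 36.1 CPM there, against 74.8 and 91.4 CPM in fresh 10-week WT cells, and 7 of the 9 tested were called lower. Lung epithelial markers were called lower for 7 of 12 tested, erythroid markers for 5 of 7, and T and NK cell markers for 4 of 9, with 1 higher. The part of these shifts in the complement values was not tested, and in bulk RNA fewer cells of a type and less RNA per cell cannot be told apart. The age of the cultured mice is not in the labels, so culture and an age difference cannot be told apart either.

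The 3 chains of C1q were scarce in every group and, as the libraries are labelled, had lower values in KO than in WT cells. With the labels of the 2 conflicting 10-week libraries exchanged, the 10-week log2 values were 0.45 for C1qa, -0.11 for C1qb and 0.42 for C1qc, so that the direction turned for C1qa and C1qc (edgeR adjusted p = 0.993, 0.998 and 0.993). Their genes held between 2 and 75 counts in a library. C1qa was at 1.85 and 0.632 CPM in KO cells and at 3.002 and 5.93 CPM in WT cells at 10 weeks. The 4-week values were 0.498 and 0.280 CPM in KO cells and 0.978 and 1.21 CPM in WT cells. Within each age both KO libraries lay below both WT libraries, also for C1qb and C1qc, as for 20.9% of all genes at 10 weeks and 24.6% at 4 weeks.

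C1qb was at 0.829 and 0.452 CPM in KO cells and at 3.30 and 3.32 CPM in WT cells at 10 weeks. Cells of 4 weeks had 0.553 and 0.700 CPM in KO, against 2.17 and 1.16 CPM in WT. All 4 KO libraries were below all 4 WT libraries, as for 2.28% of all genes. C1qc was at 0.682 and 0.994 CPM in KO cells and at 2.21 and 2.85 CPM in WT cells at 10 weeks. Cells of 4 weeks had 0.277 and 0.140 CPM in KO, against 0.838 and 0.724 CPM in WT. These low values rest on few counts, from 2 to 14 of C1qc in each KO library.

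At either age alone none of the 8 genes passed between genotypes. At 10 weeks 3 had an unadjusted p under 0.05 (C1qa, C1qb and C1qc, against 9.76% of all genes) and DESeq2 called 1 (C1qb), where edgeR called 0.11% and DESeq2 1.15% of all genes. At 4 weeks 2 had an unadjusted p under 0.05 (C1qb and C1qc, against 12% of all genes) and DESeq2 called 0, where edgeR called 0.667% and DESeq2 2.02% of all genes. The log2 fold changes at 10 weeks were -1.76 ± 0.59 for C1qa, -2.30 ± 0.49 for C1qb and -1.61 ± 0.50 for C1qc. At 4 weeks they were -1.45 ± 0.70 for C1qa, -1.39 ± 0.51 for C1qb and -1.83 ± 0.61 for C1qc.

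Over both ages, with 4 libraries per genotype, C1qb fell by 1.84 ± 0.35 on the log2 scale (edgeR adjusted p = 0.0379), or 3.58-fold. It was the 1 gene of the 8 called, against 0.996% of all genes called and 0.384% called lower. C1qc had -1.72 ± 0.39 (edgeR adjusted p = 0.0676) and C1qa -1.61 ± 0.46 (edgeR adjusted p = 0.142), and DESeq2 called all 3, where it called 2.86% of all genes. The C1qb call was fragile. It was lost in 6 of the 8 fits that left out a library, in which the edgeR adjusted p reached 0.151. The fits that kept it were those without 10-week KO replicate 1 and without 4-week WT replicate 2. It was also lost with both female 10-week libraries left out (edgeR adjusted p = 0.254), with both libraries of conflicting codes left out (0.1), and with the replicate block (0.053). With the labels of those 2 libraries exchanged the value was -0.75 (edgeR adjusted p = 0.783).

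**Figure D3:**
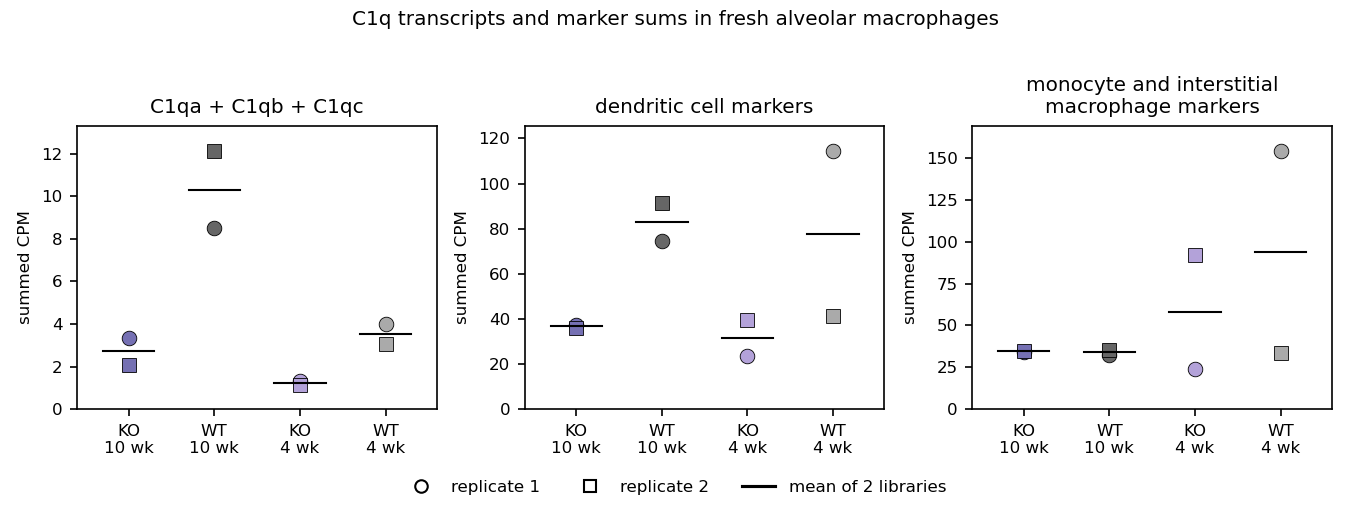
Summed CPM of the 3 C1q genes, of 10 dendritic cell markers and of 12 monocyte and interstitial macrophage markers in fresh cells, 1 symbol per library with a bar at the mean of 2. The C1q sums of KO cells (1.12 to 3.36 CPM) and WT cells (3.09 to 12.1 CPM) do not overlap within an age, and the dendritic cell sums follow the same order within each age.

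Most markers of dendritic cells and of T and NK cells also had lower values in KO cells. The 10 dendritic cell markers summed to 37.5 and 36.0 CPM in KO cells and to 74.8 and 91.4 CPM in WT cells at 10 weeks. At 4 weeks they summed to 23.6 and 39.4 CPM in KO cells and to 114 and 41.3 CPM in WT cells. Of the 9 tested, 8 had lower values in KO cells at each age, 0 were called at either age alone and 3 were called lower over both. Cd209a was the 1 marker at 0 in both 4-week KO libraries. T and NK cell markers summed to 237 and 205 CPM in KO cells and to 245 and 265 CPM in WT cells at 10 weeks. Their 4-week sums were 132 and 142 CPM in KO cells and 218 and 187 CPM in WT cells. These sums mostly reflect Cd2, which averaged 189 CPM over the 12 libraries. Il7r averaged 18.9 CPM and each other marker on that list under 1 CPM. The median log2 fold change of the tested T and NK cell markers was -2.36 at 10 weeks and -0.55 at 4 weeks. Of the 9 T and NK cell markers tested, 9 had lower values at 10 weeks and 8 at 4 weeks. Of them, 1 was called lower at 4 weeks and 0 at 10 weeks or over both ages. Lung epithelial markers went the other way at 10 weeks, where 10 of 12 had higher values in KO cells and 1 was called. Alveolar macrophage markers summed to 27087.5 and 31354 CPM in KO cells and to 21462 and 22618 CPM in WT cells at 10 weeks. Their 4-week sums were 30108 and 42417 CPM in KO cells and 28299 and 25507 CPM in WT cells. Of the 12 tested, 9 had higher values in KO cells at 10 weeks and 7 at 4 weeks, with 1 called higher at 4 weeks. The 12 markers of monocytes and interstitial macrophages summed to 34.5 and 34.9 CPM in KO cells and to 32.5 and 35.4 CPM in WT cells at 10 weeks. At 4 weeks their sums overlapped, at 24.0 and 91.8 CPM in KO cells and at 154 and 33.5 CPM in WT cells. Of the 8 tested, 5 had higher and 3 lower values in KO cells at 10 weeks, and 3 higher and 5 lower at 4 weeks, with 0 called. Markers of erythroid cells, red cells and their precursors, differed more: 7 of them summed to 81.2 and 79.8 CPM in KO cells and to 261 and 118 CPM in WT cells at 10 weeks. The 4-week sums were 543 and 1020.2 CPM in KO cells and 4889 and 2060 CPM in WT cells. The part of other cells in the C1q values was not tested.

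Within the series of title numbers at 10 weeks, the KO to WT ratios of C1qa, C1qb and C1qc were 0.617, 0.251 and 0.308 in replicate 1. In replicate 2, the female pair, they were 0.107, 0.136 and 0.349. All 4-week libraries were of 1 series. The KO difference itself did not pass as depending on age for any of the 8 genes, with 0 at an unadjusted p under 0.05 (8.65% of all genes) and 0 by DESeq2, where edgeR called 0.188% and DESeq2 0.698% of all genes.

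C1qa, C1qb and C1qc had higher values at 10 than at 4 weeks in WT cells, and C1qa and C1qc also in KO cells, with no call. C1qb overlapped between the ages in KO cells, at 0.829 and 0.452 CPM at 10 weeks and 0.553 and 0.700 CPM at 4 weeks. In WT cells the log2 fold change was 2.002 ± 0.59 for C1qa, 1.01 ± 0.45 for C1qb and 1.69 ± 0.49 for C1qc (edgeR adjusted p = 0.1, 0.256 and 0.0954). None of the 8 genes was called there by edgeR, 3 had an unadjusted p under 0.05 (C1qa, C1qb and C1qc, against 18.6% of all genes) and DESeq2 called 1 (C1qa), against 2.11% of all genes called by edgeR and 5.26% by DESeq2. In KO cells it was 1.70 ± 0.70 for C1qa, 0.10 ± 0.54 for C1qb and 1.90 ± 0.62 for C1qc. There too 0 of the 8 were called, 3 had an unadjusted p under 0.05 (C1qa, C1qc and C3, against 25.6% of all genes) and DESeq2 called 0, against 9.73% of all genes called by edgeR and 12% by DESeq2.

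In untreated culture C1qa was at 1.203 and 1.38 CPM, below both fresh 10-week WT libraries (log2 -1.78 ± 0.59, edgeR adjusted p = 0.0302). That call was lost without either untreated culture (edgeR adjusted p = 0.129 and 0.0994) and without 10-week WT replicate 2 (0.218). It was also lost with the replicate block (edgeR adjusted p = 0.055), with the 10-week labels exchanged (log2 -0.91, 0.381), without both female libraries (0.189) and without both libraries of conflicting codes (0.195). Against 4-week cells the log2 value of C1qa was 0.22 ± 0.62 (edgeR adjusted p = 0.799). With vitamin D3 C1qa was at 2.16 and 0.843 CPM, on both sides of the untreated values.

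C3ar1, the receptor for C3a, was also low. It was at 0.829 and 2.08 CPM in KO cells and at 1.53 and 2.37 CPM in WT cells at 10 weeks. The 4-week values were 0.608 and 1.75 CPM in KO cells and 3.56 and 0.338 CPM in WT cells, so that the genotypes overlapped at both ages. The 95% interval of KO over WT was wide at both ages, from -2.51 to 1.56 at 10 weeks and from -2.75 to 1.36 at 4 weeks.

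Per kilobase of exon, levels can be set between genes. In fresh 10-week WT cells C5ar1 had 146 ± 13.5 CPM per kb (SD, n = 2) and Cfp 80.0 ± 17.3. C3 followed with 48.2 ± 0.678 and Cfb with 40.0 ± 4.49 CPM per kb, which differed by more than their spread at this age. At 4 weeks the same neighbours in WT cells, at 48.9 ± 2.82 for C3 and 44.2 ± 11.1 for Cfb, did not. The order was then C1qa at 4.296 ± 1.99, C1qb at 3.04 ± 0.0165, C1qc at 2.10 ± 0.372 and C3ar1 at 0.453 ± 0.139 CPM per kb in 10-week WT cells. C1qa and C1qb did not differ beyond their spread. With vitamin D3 in culture C3 led at 262 ± 171 CPM per kb, ahead of Cfp at 59.9 ± 24.3, Cfb at 47.6 ± 8.94 and C5ar1 at 3.58 ± 1.05, of which Cfp and Cfb did not differ beyond their spread. In untreated culture the order was Cfb at 125 ± 27.9, C3 at 73.1 ± 28.0, Cfp at 11.6 ± 3.37 and C5ar1 at 4.15 ± 1.99 CPM per kb. There Cfb and C3 did not differ beyond their spread.

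A list of 47 complement genes in 7 roles gives the rest of the cascade. Of these, 46 were in the table and 23 were tested, and 9 had no count in any library (Mbl1, Mbl2, Masp1, C8b, C9, Cfi, C4bp, Vtn and Daf2). With vitamin D3, 3 of the 23 were higher and 2 lower, where 10.6% of all genes were called. The median log2 fold change was -0.13, against 0 over all genes. Outside the 8 genes, 15 were tested. Itgam, the alpha chain of complement receptor 3, was at 18.6 and 26.9 CPM with vitamin D3 and at 118 and 53.4 CPM without it (log2 -1.93 ± 0.42, edgeR adjusted p = 0.0123). Itgax, the alpha chain of complement receptor 4, was at 4755 and 3846 CPM with vitamin D3, against 3302 and 2842 CPM without it (log2 0.49 ± 0.14, edgeR adjusted p = 0.0427).

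Between untreated culture and fresh 10-week WT cells, 5 of the 23 were higher and 6 lower, where 42.4% of all genes were called. The median was -0.05, against -0.02 over all genes. Itgam rose by 4.12 ± 0.48 on the log2 scale, and Itgb2, the beta chain it pairs with, by 1.29 ± 0.09. C2, the classical pathway protease, rose by 2.69 ± 0.80 and Itgax by 0.86 ± 0.14. The C2 value rested on few counts, 9 and 12 in the fresh 10-week libraries. C1ra, which encodes a protease of the C1 complex, fell by 1.004 ± 0.27. Hc, the gene of C5, had 0 counts in both untreated cultures, against 14 and 12 in the fresh 10-week libraries (26 together). It was thus at least 8.06-fold lower, against a floor of 3 counts over the group. Against 4-week WT cells 4 of the 23 were higher and 4 lower, with a median of 0.20.

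**Figure D4:**
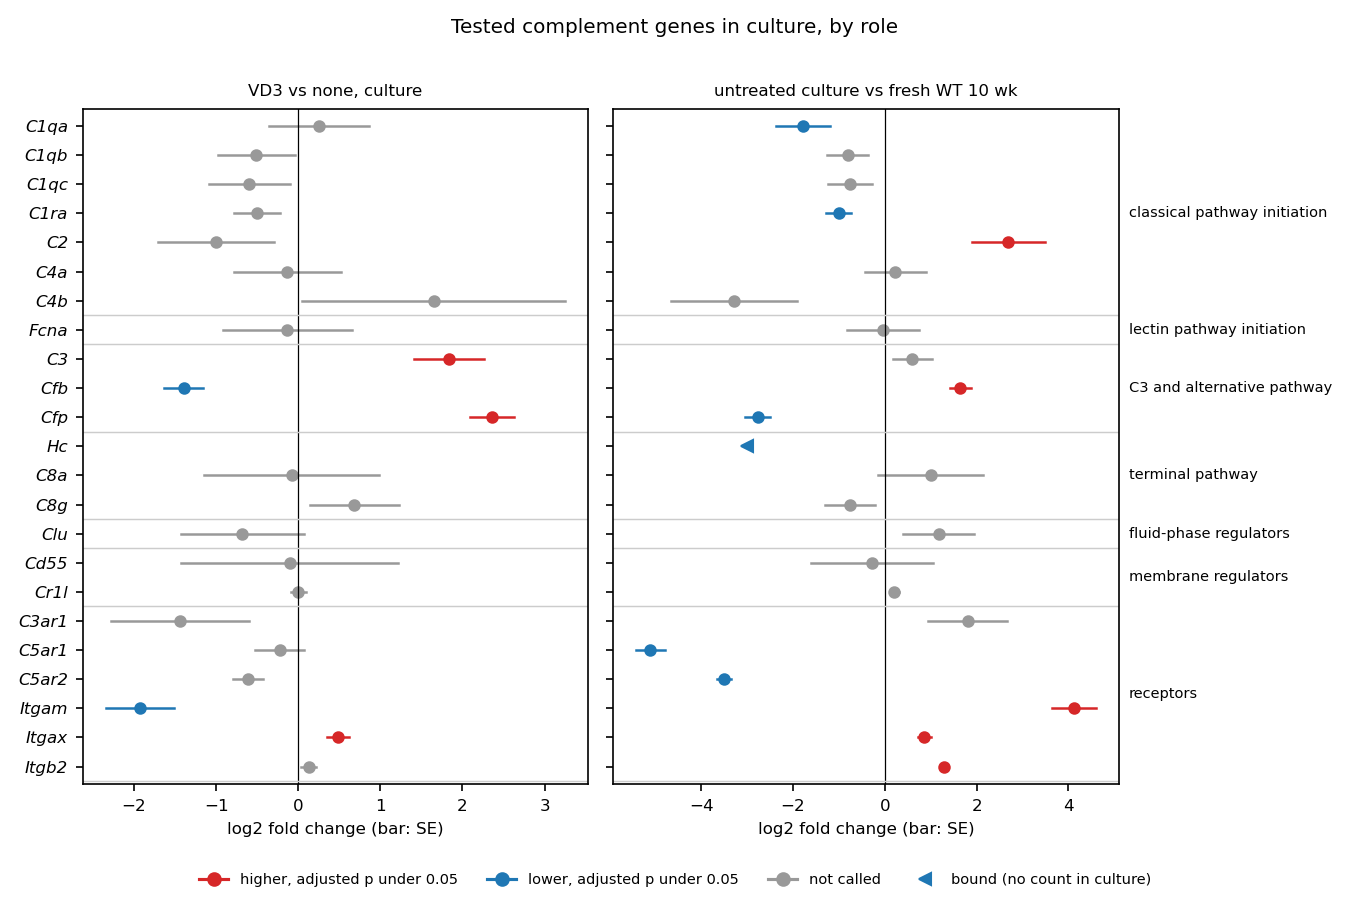
Log2 fold changes with SE bars of the 23 tested complement genes, in rows by role, for vitamin D3 against none and for untreated culture against fresh 10-week WT cells, coloured where the adjusted p was under 0.05. A triangle marks the bound for Hc. Itgam and Cfb are called in both panels, lower with vitamin D3 and higher in untreated culture, Cfp the other way round, and Itgax higher in both.

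Between genotypes 0 of the 15 other tested complement genes passed by edgeR at 4 weeks, at 10 weeks or over both ages. Their median log2 fold change over both ages was 0.22, against -0.01 over all genes and -0.40 over the 8. At 10 against 4 weeks in KO cells, 2 of these 15 were called, both higher, where 9.73% of all genes were called. C4b, which encodes C4 and may share reads with its near copy C4a, was at 8.43 and 79.0 CPM at 10 weeks and at 1.44 and 3.15 CPM at 4 weeks (log2 4.26 ± 0.88, edgeR adjusted p = 0.0123). Its 10-week value thus lay mostly in 1 library, KO replicate 2. Against 10-week WT cells, at 1.18 and 3.64 CPM, both KO libraries were higher, with no call (log2 4.24 ± 0.88, edgeR adjusted p = 0.118). Itgax had 0.68 ± 0.14 in the same comparison. In WT cells 0 of the 23 passed by age, where 2.11% of all genes did.

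Of the most abundant tested gene in each other role, Cr1l, a membrane regulator of C3 convertases, ranged from 60.2 to 76.2 CPM over the 12 libraries, and Fcna, a ficolin of the lectin pathway, averaged 0.587 CPM. C8g, a chain of the membrane attack complex, averaged 1.56 CPM, and Clu, a fluid-phase regulator of that complex, averaged 2.41 CPM. Cr1l did not pass in any comparison.

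Genes whose levels ran most like each pattern over the 12 libraries were found by Pearson's r of log2 CPM, as a description. For the mean of the 3 C1q genes they were Sft2d2 (r = 0.95), Cyp2u1 (0.90) and H2-K1 (0.89), and over the 8 fresh libraries alone r was 0.96, 0.92 and 0.97. For C3 they were Spp1, Cirh1a and Frmd4a (0.95 each), with 0.74, 0.67 and 0.67 in fresh cells. For Cfb they were Isoc1 (0.95), Usp25 (0.94) and Vav1 (0.91), and for C3ar1 Trappc2 (0.90), Mlf2 (0.88) and Fam177a (0.88). For Cfp they were Sulf2, App and Ccl6 (0.97 each), with 0.05, 0.07 and 0.37 in fresh cells. For C5ar1 they were Cyp4f18, Anln and Eid1 (0.99 each), with -0.03, 0.83 and 0.57 in fresh cells. C5ar1 was lower in every cultured library than in any fresh one. For Cfp only the untreated cultures lay apart, below all other libraries. Such gaps enter r over all 12.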

How the data were processed

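The authors deposited raw counts per gene for 23413 genes, and a log2 table of log2(CPM + 1) over 10631 genes that also comes from the authors. The submitters' processing notes name TopHat2, edgeR and the build mm9. The counting tool, its strand setting and all versions are not given in the sources used. Columns were matched by title. The log2 table's 10-week columns were used by the group they name.

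Counts entered edgeR 4.0.16 (R 4.3.3) and its quasi-likelihood F test. TMM scaling and filterByExpr (minimum count 10, minimum total 15) were applied, and all 12 libraries entered 1 fit with 6 residual degrees of freedom. Benjamini-Hochberg adjustment ran over 12748 genes, with a threshold of 0.05. SE is the log2 fold change over the root of F. Alternatives were DESeq2 1.42.0, its size factors, no filter, a strict filter (5 CPM in 2 libraries), the compared groups alone, the replicate number as a block, each library left out, the 10-week label exchange and limma 3.58.1 on the log2 table. For cultured libraries the block was the series of title numbers. Fits without the female or the conflicting libraries were added after seeing the data. The code was tested on simulated counts.

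Members and lists were chosen with earlier results of these data known. The 8 genes were named in every comparison, other complement genes if called in any or most abundant in their role, and 3 genes per pattern by likeness. A further listed gene is not reported here. Exon lengths were the union of coding transcripts' exons in GENCODE M21. The 95% intervals of log2 fold changes come from the edgeR fit and include the spread between libraries, whereas the floor of 3 counts covers counting error only.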

Additional observations from a re-analysis of the deposited data

Results flagged for a closer look

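The KO values of C3 lay on opposite sides of WT at the 2 ages, with no overlap: both KO libraries were below both WT libraries at 10 weeks and above them at 4 weeks. Of all genes tested, 20.9% had both KO libraries lower at 10 weeks and 24% had both higher at 4 weeks. The KO difference at 10 weeks minus that at 4 weeks was -1.10 ± 0.59 on the log2 scale. The test of this difference did not pass (edgeR adjusted p = 0.649), though it did with no filter on low counts (edgeR adjusted p = 1.87e-07). With no filter 392 genes were called in this test, against 24 with the filter. With the labels of the 2 conflicting 10-week libraries exchanged the value was -0.76 (edgeR adjusted p = 0.82). At 10 weeks the lower KO library was the female one, at 94.3 CPM.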

How the results depend on the processing

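No alternative reversed a call, but 60 values that were called in neither fit changed sign, 34 of them with 1 library left out. With the 10-week labels exchanged, KO over WT at 10 weeks was 0.45 for C1qa, 0.42 for C1qc and 0.92 for C3ar1 (log2, here and below), KO over WT over both ages 0.11 for C3ar1, the genotype by age difference 1.90 for C1qa and 1.28 for C1qb, 10 against 4 weeks in WT -0.67 for C3ar1, and untreated culture against 10-week cells 0.041 for C1qc. Without both libraries of conflicting codes, C3ar1 was 0.44 for KO over WT at 10 weeks and -0.29 by age in WT, and C1qb -0.46 by age in KO. Without both female libraries, the age value in KO was -0.47 for C3ar1 and -0.31 for Cfb, that in WT -0.29 for C3ar1, the genotype by age difference 0.76 for C1qa, -0.19 for C3ar1, 0.13 for C5ar1 and -0.052 for Cfb, and KO over WT 0.026 for C5ar1 at 10 weeks and 0.016 for C3 over both ages. Cfb by age in KO was -0.0092 with DESeq2, -0.011 with its size factors, -0.015 with the groups alone, -0.016 with the replicate block and -0.015 with limma, and the genotype by age difference of C3ar1 was -0.20 with the block. Leaving out 1 library gave ranges across 0 for 10 against 4 weeks in KO (C1qb -0.46 to 0.41, C3ar1 -0.47 to 1.17, Cfb -0.31 to 0.26) and in WT (C3 -0.087 to 0.042, C3ar1 -0.89 to 2.47, C5ar1 -0.13 to 0.056, Cfb -0.38 to 0.13, Cfp -0.36 to 0.080). It did so for the genotype by age difference (C1qa -1.34 to 0.24, C1qc -0.15 to 0.80, C3ar1 -2.23 to 1.14, C5ar1 -0.51 to 0.034, Cfb -0.17 to 0.40), KO over WT (C3ar1 -1.21 to 0.11 at 10 weeks, -1.62 to 1.75 at 4 weeks and -1.05 to 0.64 over both, C3 -0.52 to 0.024 over both), untreated culture against 4-week cells (C1qb -0.20 to 0.68) and vitamin D3 (C1qa -0.61 to 0.76, C5ar1 -0.61 to 0.41). Over both ages the KO comparison called 1 of the 8 genes (C1qb), against 3 with DESeq2, 4 with no filter and 0 with the strict filter or limma on the log2 table, which hold 4 of the 8. It called 0 with the replicate block, with the 10-week labels exchanged, without both female libraries and without both libraries of conflicting codes, and 0 to 1 with a library left out. At 10 weeks DESeq2 called 1 and no filter 3, against 0, and at 4 weeks the groups alone called 1 against 0. The age difference in KO called 1 instead of 0 with no filter, with the groups alone, with the replicate block and with the 10-week labels exchanged. That in WT called 1 with DESeq2 and with no filter, and the genotype by age difference 1 with no filter. Untreated culture called 5 with no filter against 3 in the comparison with 4-week cells, and 3 to 4 with a library left out of either culture comparison. Vitamin D3 called 2 to 3 with a library left out. The cause of these changes was not tested. Over all genes, vitamin D3 called 1356, from 545 without vitamin D3 replicate 1 to 1989 with no filter. KO against WT called 85 at 4 weeks (26 to 690), 14 at 10 weeks (1 to 503) and 127 over both (24 to 791). Same-numbered samples were not shown to be paired: deviations correlated at 0.122 at 10 weeks, -0.119 at 4 weeks and 0.272 by title series in culture. The few counts of C1q and C3ar1, with 2 libraries a group, limit the precision of these 4 genes.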
